A study of Homo sapiens with 9 samples.

Results

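HuH-7 cells exposed to arsenic at 15 µM were set against HuH-7 cells exposed to arsenic at 5 µM together with copper at 5 µM. HuH-7 is an established human hepatocellular carcinoma line that keeps many hepatocyte functions. Each condition was 1 of 9 cultures sequenced as 1 library of ribosomal RNA-depleted total RNA on an Ion Torrent Proton, so the comparison uses 2 of the 9 libraries and has no replicate on either side. The other cultures were an untreated control, arsenic at 5 µM alone, acetaminophen, serum exosomes, acetaminophen with exosomes, caffeine, and acetaminophen with caffeine. All genes were compared, of which 18237 passed a filter of at least 1 CPM (read count scaled to the library's total) in at least 2 of the 9 libraries. Below, the 15 µM culture is called the high-arsenic library and the culture with both agents the arsenic-copper library. They differ in the arsenic dose and in copper at once, so the effects of dose and copper cannot be told apart in this pair. None of the 9 cultures received copper alone. Values of the arsenic 5 µM library and of the untreated control are given beside many results as context. The sources used here give neither the exposure time nor the chemical form of either metal.

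Arsenic in its trivalent form binds the thiol groups of proteins. Cells exposed to it are known to make heat shock chaperones through HSF1, antioxidant enzymes through NRF2, and the ATF4 genes of the integrated stress response. Copper and zinc ions that exceed the cell's binding capacity induce metallothioneins through the zinc-sensing factor MTF1. In hepatocytes these programmes sit beside the secretion of plasma proteins, bile acid synthesis and cholesterol synthesis.

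The high-arsenic library held 2985304 counts on genes and the arsenic-copper library 2638534, within a range of 658725 to 8227906 over the 9 libraries. A gene at 50 CPM has 139 counts in the high-arsenic library, with a 95% counting interval of 41.9 to 58.9 CPM, and 135 counts in the arsenic-copper library, with an interval of 42.0 to 59.3 CPM. At 5 CPM the counts are 14 and 13, with intervals of 2.75 to 8.43 CPM in the high-arsenic library and 2.57 to 8.25 CPM in the arsenic-copper library. Small nucleolar RNA (snoRNA) genes took 3.41% of the counts in the high-arsenic library and 6.28% in the arsenic-copper library, against 35.5% in the arsenic 5 µM library and 4.86% in the control. The arsenic 5 µM library therefore stands apart in its make-up, and its log2 levels relative to the mean of the pair followed GC content (r = -0.47 across 17741 genes, which are not independent replicates). Between the high-arsenic and arsenic-copper libraries the log2 ratio had r = 0.01 with GC content and r = 0.10 with log2 transcript length. All 11 hepatoma markers had counts in both libraries, with summed levels of 9345 CPM in the high-arsenic library and 15529 CPM in the arsenic-copper library. Of the endothelial markers PECAM1, CDH5 and KDR, and of the leukocyte markers PTPRC, CD3E and MS4A1, neither library had a count. Summed stellate markers stood at 48.4 CPM with high arsenic and 58.6 CPM with arsenic and copper, 5 biliary markers at 247 and 372 CPM in the same order, and the 6 leukocyte markers at 27.3 and 45.3 CPM, nearly all of it lysozyme (LYZ).

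Chaperone, stress-response and immediate early genes stood higher in the high-arsenic library, while histone, cell cycle, cholesterol synthesis and fibrinogen genes stood lower. A gene was counted as apart when its ratio of TMM-scaled CPM, high arsenic over arsenic-copper, was at least 2 in either direction, with 0.5 prior counts, and its exact conditional binomial 95% interval excluded 1. This interval covers counting error alone, not variation between cultures, and PCR copies of a molecule were not marked by identifiers. By this rule 4077 of the 18237 tested genes (22.4%) were apart, 2128 higher (11.7%) and 1949 lower (10.7%) in the high-arsenic library. Among the 7269 genes that averaged 20 CPM or more over the 9 libraries, 880 were higher (12.1%) and 1031 lower (14.2%). The median log2 ratio over all tested genes was -0.05. Among genes with counts in both libraries, 149 were at least 8-fold higher and 72 at least 8-fold lower. A further 131 higher and 73 lower genes had no count in 1 of the libraries, and against the floor of 3 counts 7 of the higher and 0 of the lower ones reached an 8-fold bound. The split between directions moved with the scaling: with DESeq2 size factors 2423 genes were higher and 1615 lower, and with total counts 1746 were higher and 2413 lower. These scalings moved the median of all genes by 0.11 and -0.13 on the log2 scale. Set against the untreated control, 5631 genes were apart in the high-arsenic library and 2983 in the arsenic-copper library, and both counts share the control library.

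**Figure D1:**
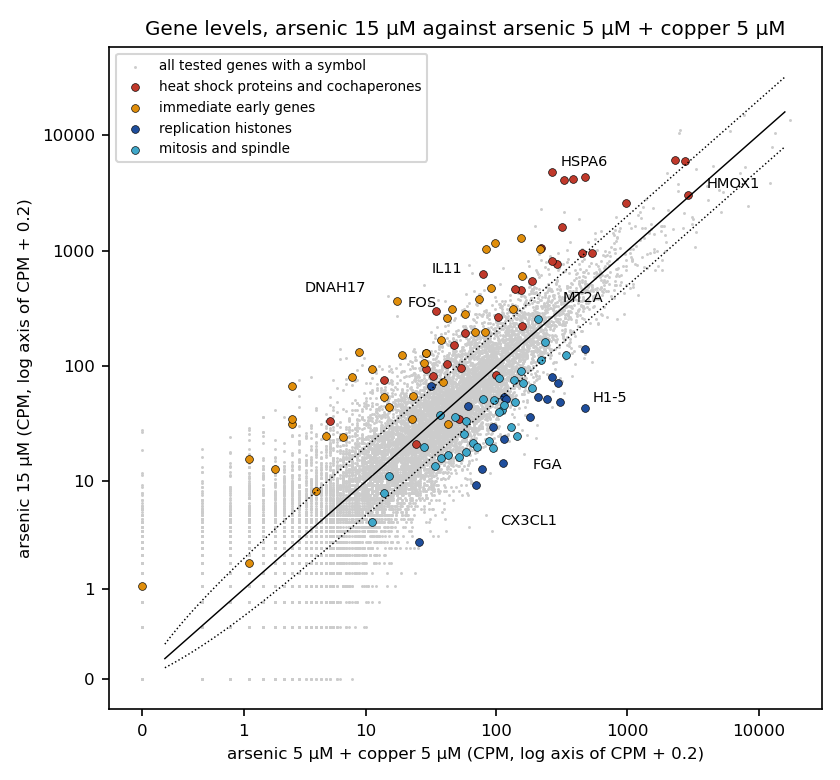
TMM-scaled CPM of each tested gene with a symbol in the high-arsenic library (vertical) and the arsenic-copper library (horizontal), both on log axes of CPM + 0.2. Coloured points mark members of 4 gene lists, the solid line marks equal levels and the dotted lines 2-fold differences. The heat shock and immediate early genes lie mostly above the upper dotted line, and the histone and mitosis genes mostly below the solid line.

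**Figure D2:**
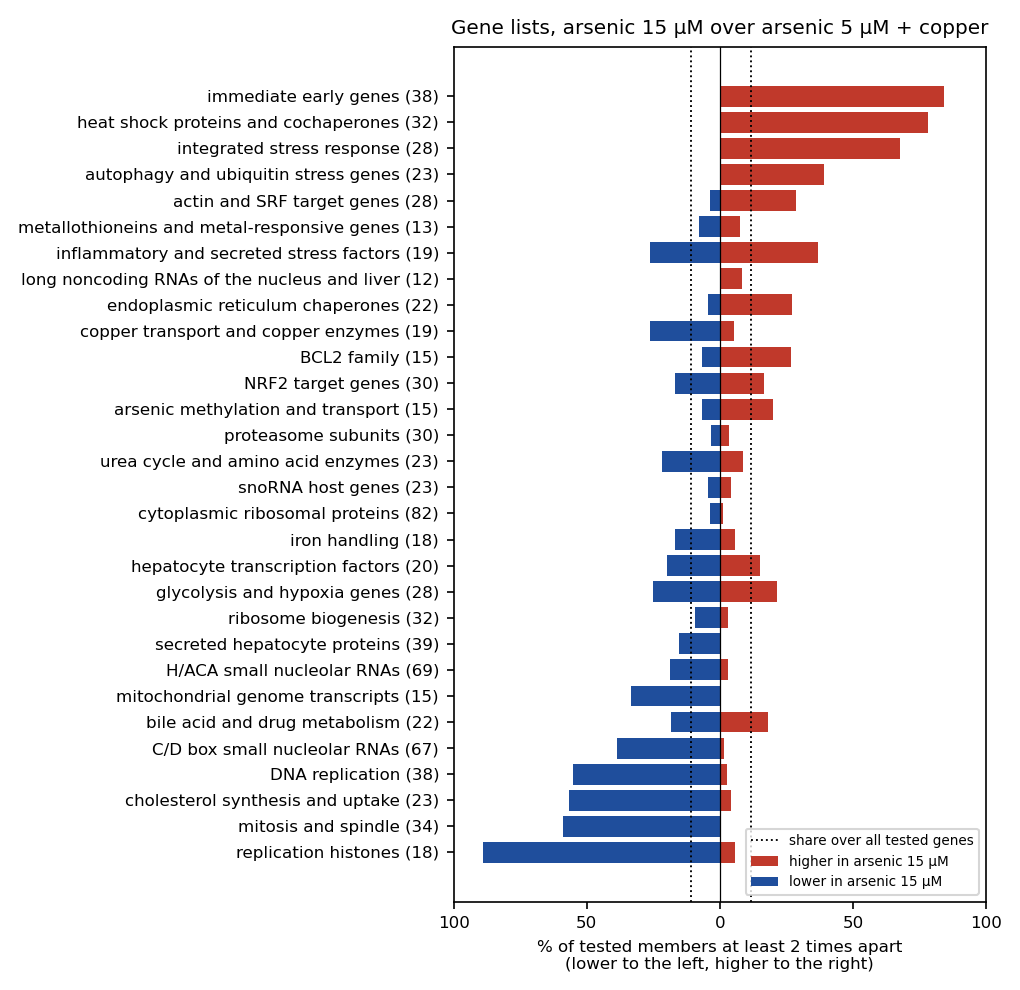
Share of the tested members of each gene list described that were apart, higher in the high-arsenic library (right) or lower (left), ordered by the list's median log2 ratio; the number of tested members stands in parentheses. The dotted lines mark the shares over all tested genes, 11.7% higher and 10.7% lower. Immediate early, heat shock and integrated stress response genes reach furthest to the right, and replication histones, mitosis, cholesterol and DNA replication genes furthest to the left.

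Since no condition was repeated, a replicate test does not exist, and edgeR's quasi-likelihood test was run with a spread borrowed from the 6 libraries without arsenic. This assumes that the lone arsenic libraries vary as those 6 depart from additive effects. With Benjamini-Hochberg adjustment over all genes, 17 genes passed an adjusted p of 0.05 (0.0932% of the genes tested), 14 higher (0.0768%) and 3 lower (0.0165%), and 1115 had an unadjusted p under 0.05. DESeq2 with the same terms called 19. Leading the higher genes was DNAH17, an axonemal dynein heavy chain, at 407 CPM in the high-arsenic library, 14.8 in the arsenic-copper library, 6.81 with arsenic 5 µM and 2.9 in the control. Its edgeR log2 fold change was 4.78 (SE 0.96, adjusted p 0.0128). The AP-1 subunit FOS had 372 CPM with high arsenic and 17.4 CPM with arsenic and copper (edgeR log2 fold change 4.41, SE 0.95, adjusted p 0.0204). The cytokine gene IL11 had 503 CPM in the high-arsenic library, 27.8 in the arsenic-copper library, 11.1 with arsenic 5 µM and no count in the control (edgeR adjusted p 0.0209). Further genes called higher by edgeR were the Ras-family exchange factor RASGEF1B, the ligand WNT11, the zinc finger factor EGR1, the MYC antagonist MXD1, the thyroid hormone-inactivating deiodinase DIO3, the small GTPase GEM, ZNF280A, the ephrin EFNB2 and the AP-1 subunit FOSL1, with adjusted p between 0.0206 and 0.0494. Lower genes were CX3CL1, the membrane-bound chemokine fractalkine, the histone gene H3C13 and an identifier that the name tables do not pair with a symbol. CX3CL1 had 3.59 CPM in the high-arsenic library against 92.8 in the arsenic-copper library, 89 with arsenic 5 µM and 77.2 in the control (edgeR log2 fold change -4.68, SE 1.01, adjusted p 0.0204). The high-arsenic library thus stood below the 3 others in CX3CL1. The number of edgeR calls rests on single libraries outside the pair: it was 1033 without the control and 961 without the acetaminophen library. It was 0 without the exosome, the acetaminophen with exosome, the caffeine or the acetaminophen with caffeine library, where 406 to 633 genes had an unadjusted p under 0.05. Each called gene with a symbol had an adjusted p of 1 in at least 1 of these alternatives.

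The antisense genes MCPH1-AS1 and PDE7B-AS1 were also called higher by edgeR. MCPH1-AS1 had 28 CPM in the high-arsenic library and no count in the arsenic-copper library, the arsenic 5 µM library or the control. Against the floor of 3 counts in the arsenic-copper library it was at least 25.1-fold higher, with an edgeR adjusted p of 0.0206 and a DESeq2 adjusted p not available. PDE7B-AS1 had 26.9 CPM with high arsenic and no count with arsenic and copper. It was 24.2-fold higher against the same floor, with an interval from 19.2 (edgeR adjusted p 0.027). AFAP1-AS1 had 19 CPM and no count, 17.1-fold higher against that floor, with an interval from 13.4 (edgeR adjusted p 0.119). MCPH1 itself had 33.7 CPM in the high-arsenic library and 16.3 in the arsenic-copper library, and AFAP1 195 and 40.4 CPM in that order. The sources used here do not give the strand setting of the counting, so reads of a gene and its antisense partner cannot be told apart. The edgeR count of 0 without the exosome, acetaminophen with exosome, caffeine or acetaminophen with caffeine library covers these genes too.

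Heat shock proteins and their cochaperones were higher in the high-arsenic library for 25 of 32 tested members, and none was lower. The list's median log2 ratio was 1.55, against -0.05 over all tested genes, of which 11.7% were higher. Together the 32 genes took 4.22% of the counts in the high-arsenic library (exact binomial 95% interval 4.2 to 4.25), 1.41% in the arsenic-copper library (1.40 to 1.43), 0.994% with arsenic 5 µM and 0.959% in the control. The snoRNA genes took 35.5% of the counts with arsenic 5 µM, which lowers the other shares there. As summed TMM-scaled CPM the list stood at 45237 with high arsenic and 13815 with arsenic and copper. With arsenic 5 µM the sum was 15540 CPM, and in the control 8808 CPM. Set against the shared control, the median log2 ratio was 2.02 for high arsenic and 0.65 for arsenic with copper.

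HSPA6, a strictly stress-inducible HSP70, had 4761 CPM in the high-arsenic library, 268 in the arsenic-copper library, 12.4 with arsenic 5 µM and no count in the control. The ratio of high arsenic to arsenic-copper was 17.8 (95% interval 16.5 to 19.2), with an edgeR adjusted p of 0.119 and a DESeq2 adjusted p of 0.998. Among the 4 libraries HSPA6 therefore had its highest level with high arsenic and the next with arsenic and copper. The inducible HSP70 gene HSPA1A had 4123 CPM with high arsenic and 331 with arsenic and copper, against 22.6 with arsenic 5 µM and 24.1 in the control (ratio 12.5, 11.6 to 13.3). Its near-identical copy HSPA1B had 4209, 388, 439.5 and 34.7 CPM in the same order of libraries, and how the counting split reads between the copies is uncertain. DNAJB1, the J-domain partner of HSP70, had 4353 CPM in the high-arsenic library, 479.5 in the arsenic-copper library, 70.7 with arsenic 5 µM and 168 in the control (ratio 9.08, 8.57 to 9.62). The small heat shock protein CRYAB had 305 CPM with high arsenic and 34.5 with arsenic and copper, and the HSP70 nucleotide exchange factor BAG3 had 629.6 and 79.4 CPM. HSP110 (HSPH1) had 1055 CPM in the high-arsenic library and 219 in the arsenic-copper library, and the collagen chaperone SERPINH1 1606 and 316 CPM. The most abundant chaperones were separated by less: HSP90AA1 had 6135 CPM with high arsenic and 2318 with arsenic and copper, and HSP90AB1 5952 and 2740 CPM. HSP90AB1 was not apart when total counts set the scale. The constitutive HSP70 HSPA8 was not apart, at 3059 CPM in the high-arsenic library and 2919 in the arsenic-copper library. Nor was the transcription factor HSF1, at 84.3 CPM with high arsenic and 99.8 with arsenic and copper.

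Heat shock genes carry heat shock elements, inverted repeats of a short GAA unit that HSF1 binds. Stretches of 3 promoters are shown because these genes were apart and hold GAA, TTC and GAA in a row with 2 bases of any kind between units (both strands searched). The sequences are those of RefSeq on GRCh38.p14, printed in the direction of transcription, with matches in capitals.
HSPA6, chr1:161524440-161524509, plus strand: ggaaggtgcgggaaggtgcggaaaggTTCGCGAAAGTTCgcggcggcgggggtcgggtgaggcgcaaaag
HSP90AA1, chr14:102087085-102087154, minus strand: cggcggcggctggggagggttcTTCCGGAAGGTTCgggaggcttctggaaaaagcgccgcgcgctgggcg
CHORDC1, chr11:90223070-90223139, minus strand: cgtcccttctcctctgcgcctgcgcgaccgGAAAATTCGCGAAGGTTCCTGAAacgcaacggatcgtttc
In CHORDC1, which encodes an HSP90 cochaperone, 3 matches overlap in 1 run. This pattern was found in 9 of 43 RefSeq promoter windows of the list, which reach from 250 bases before to 50 bases after the start site (20.9%), and in 0.49% of all 35116 windows. By gene, 9 of 29 tested members with a window held it. Besides the 3 shown these were DNAJA1, DNAJB6, HSP90AB1, HSPD1 and SERPINH1, which were higher, and HSPA8, which was not apart. HSPA1A, HSPA1B, DNAJB1, BAG3 and CRYAB were not among the 9. None of the 36 windows of the integrated stress response list and none of the 35 windows of the immediate early list held the pattern. These are matches of letters, and binding of HSF1 was not measured.

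**Figure D3:**
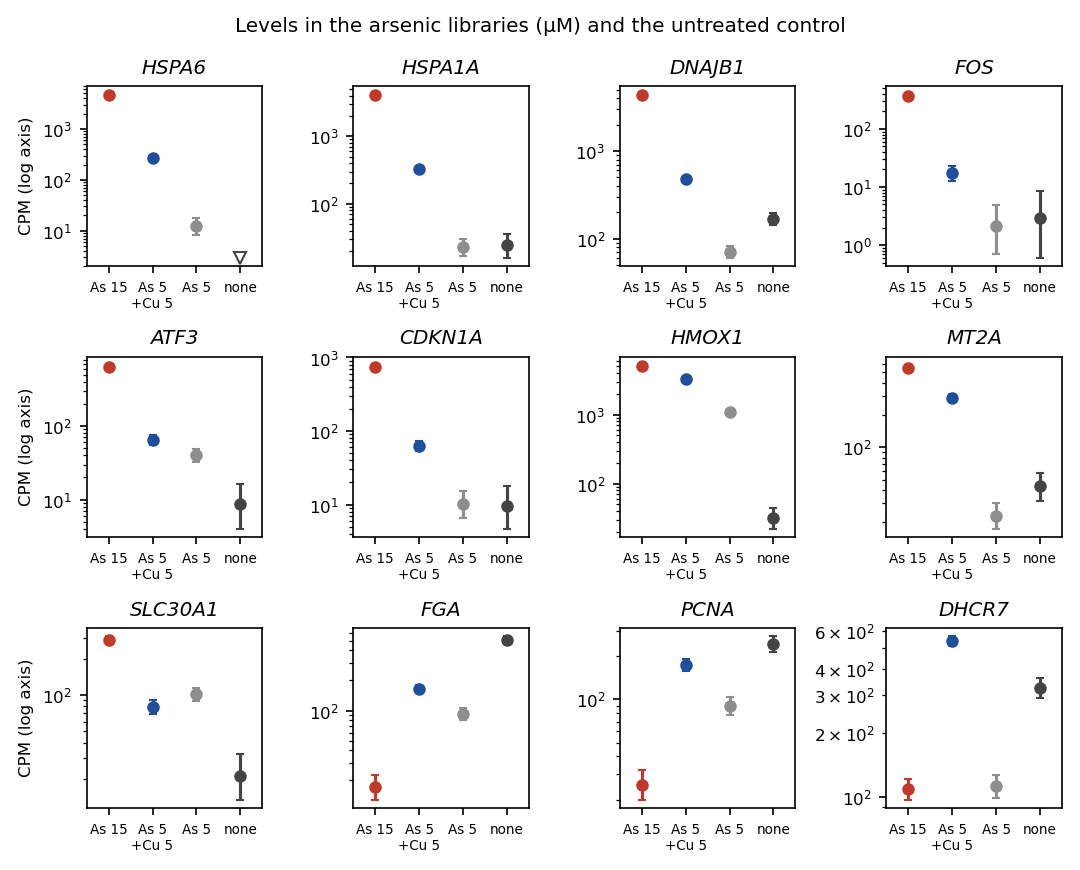
TMM-scaled CPM (log axis) of 12 genes in the high-arsenic (As 15), arsenic-copper (As 5 + Cu 5), arsenic 5 µM (As 5) and untreated control (none) libraries, 1 point per library with its 95% Poisson counting interval. The open triangle for HSPA6 marks no count in the control, drawn at the floor of 3 counts. HSPA6, HSPA1A, DNAJB1, FOS, ATF3 and CDKN1A are highest in the high-arsenic library, while FGA and PCNA are lowest there.

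Immediate early genes are transcribed within minutes of many stimuli and encode short-lived transcription factors and feedback inhibitors. In the high-arsenic library 32 of 38 tested members were higher (84.2%, against 11.7% of all tested genes), and none was lower. Their median log2 ratio was 2.30, and 2.29 without DUSP2, which had no count in the arsenic-copper library and no more than the floor of 3 counts in the other. Against the shared control the median log2 ratio was 3.35 for high arsenic and 1.15 for arsenic with copper. EGR1 had 68.2 CPM with high arsenic, 2.6 with arsenic and copper, 0.426 with arsenic 5 µM and 4.83 in the control, a ratio of 26.2 (12.5 to 66.1) between the pair. FOS, described above, had a ratio of 21.3 (15.9 to 29.2), and FOSL1 stood at 134 CPM in the high-arsenic library and 8.91 in the arsenic-copper library. The AP-1 subunits JUN and JUNB had 602 and 107 CPM with high arsenic, against 158 and 28.2 CPM with arsenic and copper. Among more abundant members, the zinc finger factor KLF6 had 1032 CPM in the high-arsenic library and 83.9 in the arsenic-copper library. The MAP kinase phosphatase DUSP1 had 1167 CPM with high arsenic and 97.2 with arsenic and copper, and the orphan nuclear receptor NR4A1 1298 and 155 CPM. All of these lay above the arsenic-copper level, and the members SRF, KLF10 and NR4A2 had ratios above 1 without being apart (72.8, 35.2 and 8.25 CPM with high arsenic, 39, 22.6 and 4.08 CPM with arsenic and copper). IER5L had the opposite order, with 31.6 CPM in the high-arsenic library and 43.1 in the arsenic-copper library, and was not apart.

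The promoter of EGR1 is shown because EGR1 had the highest ratio of the list's members with counts in both libraries and its promoter holds CArG boxes, the sites of serum response factor, here in capitals (RefSeq, GRCh38.p14).
EGR1, chr5:138465354-138465423, plus strand: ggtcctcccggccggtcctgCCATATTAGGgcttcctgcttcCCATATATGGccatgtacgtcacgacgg
CArG boxes, searched on both strands, were found in 3 of 35 windows of the immediate early list (8.57%) and in 1.29% of all windows. The genes that held them were EGR1, EGR2 and SRF, of which EGR2 and SRF were not apart.

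Serum response factor also acts on actin genes. Of 28 tested actin and serum response factor target genes, 8 were higher (28.6%) and 1 lower (3.57%) in the high-arsenic library. The shares over all tested genes were 11.7% and 10.7%, and the list's median log2 ratio was 0.71. The smooth muscle calponin CNN1 had 114 CPM in the high-arsenic library and 23.8 in the arsenic-copper library, and the cardiac ankyrin repeat protein ANKRD1 679 and 200.1 CPM. The neuronal tubulin TUBB3 had 27.3 CPM with high arsenic and 4.82 with arsenic and copper. Lower was VIL1, the villin of microvilli, at 43.4 CPM with high arsenic and 109 with arsenic and copper. ACTB, at 3813 and 2438 CPM in that order, was not apart.

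Genes of the integrated stress response act downstream of eIF2 alpha phosphorylation and ATF4. Of 28 tested members 19 were higher in the high-arsenic library (67.9%, against 11.7% of all tested genes), with none lower. The list's median log2 ratio was 1.43. Against the shared control the median was 3.18 for high arsenic and 1.76 for arsenic with copper. PPP1R15A (GADD34), which directs the phosphatase that reverses eIF2 alpha phosphorylation, had 2286 CPM with high arsenic, 220.5 with arsenic and copper, 49 with arsenic 5 µM and 37.6 in the control (ratio 10.4, 9.53 to 11.3). The transcription factor ATF3 had 641, 65, 40.0 and 8.69 CPM in the same order (ratio 9.86, 8.44 to 11.6). For both genes the high-arsenic level was the highest of the 4. SESN2, an inhibitor of mTORC1, had 2186 CPM in the high-arsenic library and 327 in the arsenic-copper library. CHOP (DDIT3), a factor tied to stress-induced cell death, had 336 CPM with high arsenic and 109 with arsenic and copper (ratio 3.07, 2.69 to 3.51), and its level in the arsenic 5 µM library was 115 CPM. The stress hormone GDF15 had 349 CPM in the high-arsenic library, 105 in the arsenic-copper library, 33.6 with arsenic 5 µM and 7.72 in the control (ratio 3.31). Enzymes of serine and asparagine synthesis were not apart: PHGDH had 645 CPM with high arsenic and 559 with arsenic and copper, PSAT1 305 and 421 CPM, and ASNS 276 and 189 CPM. ATF4 itself, at 1520 CPM in the high-arsenic library and 800.2 in the arsenic-copper library, was not apart.

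Of 22 tested endoplasmic reticulum chaperones and quality control genes, 6 were higher (27.3%) and 1 lower (4.55%) in the high-arsenic library. Over all tested genes these shares were 11.7% and 10.7%, and the list's median log2 ratio was 0.27. BiP (HSPA5), the main HSP70 of this compartment, had 1881 CPM with high arsenic, 425 with arsenic and copper, 332 with arsenic 5 µM and 864 in the control. BiP thus stood above the control with high arsenic and below it with arsenic and copper. HERPUD1, of the degradation machinery, had 325 CPM with high arsenic and 47.1 with arsenic and copper (ratio 6.9, 5.73 to 8.38), and the stress sensor ERN1 132 and 23.8 CPM. The disulfide isomerase PDIA6 was lower, at 69.6 CPM with high arsenic and 167 with arsenic and copper, and calreticulin (CALR) was not apart, at 920.2 and 695 CPM. The BiP promoter is printed because it holds an endoplasmic reticulum stress element, in capitals.
HSPA5, chr9:125241374-125241483, minus strand: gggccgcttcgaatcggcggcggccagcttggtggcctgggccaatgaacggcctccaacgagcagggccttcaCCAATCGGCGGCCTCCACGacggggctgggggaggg
CCAAT, 9 bases of any kind and CCACG, a pattern that contains a CCAAT box, were found on either strand in 8 of 25 windows of this list (32%) and in 0.0769% of all windows. Of the genes that held it, HSPA5 was higher, PDIA6 was lower, and CALR, CANX, CRELD2 and HSP90B1 were not apart. A link between the element and the levels was not tested.

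NRF2 target genes divided evenly, with 5 of 30 tested members higher and 5 lower (16.7% each, against 11.7% and 10.7% of all genes) and a median log2 ratio of -0.02 whose sign changed with the scaling. Both libraries had high levels relative to the control, with median log2 ratios of 1.41 for high arsenic and 1.78 for arsenic with copper. HMOX1, which breaks down heme, had 5106 CPM in the high-arsenic library, 3330 in the arsenic-copper library, 1080 with arsenic 5 µM and 31.8 in the control. The ratio of 1.53 (1.49 to 1.57) between the pair was under the 2-fold limit, so HMOX1 was not apart. The cystine importer SLC7A11 was higher, at 526 CPM with high arsenic, 178 with arsenic and copper, 466 with arsenic 5 µM and 20.3 in the control. Thioredoxin reductase TXNRD1 had 4672 CPM in the high-arsenic library and 2013 in the arsenic-copper library (ratio 2.32, 2.25 to 2.4), and sulfiredoxin SRXN1, which reactivates overoxidised peroxiredoxins, 18.7 and 5.57 CPM. Lower with high arsenic was the quinone reductase NQO1, at 488 CPM against 1114 with arsenic and copper. The aldo-keto reductase AKR1B10 and the pentose phosphate enzyme TKT were lower too, TKT not with DESeq2 size factors. The glutathione synthesis subunit GCLM was not apart, at 263 CPM with high arsenic and 167 with arsenic and copper, and neither was the autophagy receptor SQSTM1, at 2339 and 1574 CPM.

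Metallothioneins and other metal-responsive genes were mostly not apart. Of 13 tested members, 11 had a ratio above 1, 1 was higher and 1 lower by the 2-fold rule (7.69% each, under the shares over all tested genes), and the median log2 ratio was 0.48. SLC30A1, the plasma membrane zinc exporter, was the higher member, with 287 CPM with high arsenic, 79.1 with arsenic and copper, 101 with arsenic 5 µM and 21.2 in the control (ratio 3.63, 3.12 to 4.24). The zinc importer SLC39A10 was the lower one, at 12.9 CPM in the high-arsenic library and 30.4 in the arsenic-copper library. The metallothionein MT2A had 552 CPM with high arsenic, 290.2 with arsenic and copper, 23 with arsenic 5 µM and 43.4 in the control (ratio 1.9, 1.74 to 2.08). MT1X had 95.1, 49, 19.2 and 1.93 CPM in the same order (ratio 1.94, 1.57 to 2.41). Both fell just short of the 2-fold limit and passed it with DESeq2 size factors, at log2 ratios of 1.04 and 1.06. MT1E had 246 CPM with high arsenic and 189 with arsenic and copper, and MT1F and MT1M had nearly equal levels in the pair. Metallothionein genes are near-identical copies of each other, so the split of reads between them is uncertain. Against the shared control the list's median log2 ratio was 2.37 for high arsenic and 1.87 for arsenic with copper.

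MTF1 binds metal response elements, and the promoters of MT2A and MT1X are shown because these genes carry runs of them. The searched letters TGCACNC and TGCGCNC, on either strand, stand in capitals (RefSeq, GRCh38.p14).
MT2A, chr16:56608404-56608543, plus strand: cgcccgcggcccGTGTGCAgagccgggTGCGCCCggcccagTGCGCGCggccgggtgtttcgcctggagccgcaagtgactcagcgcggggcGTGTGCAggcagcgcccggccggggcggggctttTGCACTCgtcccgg
MT1X, chr16:56682300-56682429, plus strand: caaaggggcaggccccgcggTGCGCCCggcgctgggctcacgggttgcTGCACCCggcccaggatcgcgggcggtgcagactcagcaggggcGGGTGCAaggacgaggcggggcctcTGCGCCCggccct
The stretches hold 5 matches in MT2A and 4 in MT1X. These short letters are common: 5 of 9 windows of the list held them (55.6%), against 29.6% of all windows.

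Copper handling genes showed 1 member higher and 5 lower of 19 tested (5.26% and 26.3%, against 11.7% and 10.7% of all tested genes), with a median log2 ratio of 0.13 that changed sign with the scaling. SLC31A2, a relative of the copper importer that acts on its processing, had 22.6 CPM with high arsenic and 8.54 with arsenic and copper. The lower members were the superoxide dismutase chaperone CCS, at 71 CPM with high arsenic and 145 with arsenic and copper, the cytochrome oxidase assembly factor COX11, at 11.8 and 39 CPM, SCO1, STEAP3 and the copper chaperone ATOX1, at 3.23 and 9.28 CPM. CCS was not apart with DESeq2 size factors or with GC and length trends removed. The copper importer SLC31A1 and the hepatic copper exporter ATP7B were not apart, at 93.3 and 64.6 CPM in the high-arsenic library and 85.4 and 63.5 CPM in the arsenic-copper library. Among 15 tested genes of arsenic methylation and transport, 3 were higher and 1 lower (20% and 6.67%, near the 11.7% and 10.7% of all tested genes), and the median of -0.04 changed sign with the scaling. The lower member was not apart in 5 alternatives, among them DESeq2 size factors, protein-coding genes alone, and GC and length trends removed. A higher member was not apart when total counts set the scale. The aquaglyceroporin AQP3, a channel that admits arsenous acid, had 39.1 CPM with high arsenic and 4.82 with arsenic and copper (ratio 8.1, 4.55 to 15.7). The efflux pump ABCB1 had 109 CPM in the high-arsenic library and 27.5 in the arsenic-copper library. The efflux pump ABCC2, which exports arsenic-glutathione conjugates, was not apart, at 230.0 and 277 CPM in that order.

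Genes of ubiquitin and autophagy stress were higher for 9 of 23 tested members (39.1%, against 11.7% of all tested genes). None was lower, and the median log2 ratio was 0.85. ZFAND2A (AIRAP), an arsenic-inducible proteasome-associated protein, had 1643 CPM in the high-arsenic library, 198 in the arsenic-copper library, 37.9 with arsenic 5 µM and 36.7 in the control (ratio 8.31, 7.59 to 9.1). The autophagosome protein MAP1LC3B had 222 CPM with high arsenic and 40.8 with arsenic and copper, and 13.5 in the control. In both the arsenic-copper level lay between the high-arsenic level and the control. Proteasome subunits were largely level, with 28 of 30 not apart, PSMD12 higher (139.6 CPM with high arsenic, 65.7 with arsenic and copper) and PSMD4 lower (82.9 and 213 CPM). PSMD12 was not apart when total counts set the scale, and the sign of the list's median log2 ratio of -0.05 changed with the scaling.

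The cell cycle inhibitor CDKN1A (p21) had 753 CPM with high arsenic, 62.4 with arsenic and copper, 10.2 with arsenic 5 µM and 9.65 in the control (ratio 12.1, 10.3 to 14.2). The BH3-only death genes PMAIP1 (NOXA) and BBC3 (PUMA) had 218 and 58.8 CPM in the high-arsenic library, against 35.3 and 11.1 CPM in the arsenic-copper library. DDB2, a DNA damage recognition gene, and the cyclin G gene CCNG1 were lower, at 2.87 and 55.6 CPM with high arsenic and 16 and 126 CPM with arsenic and copper. In the BCL2 family, 4 of 15 tested members were higher and 1 lower (26.7% and 6.67%, against 11.7% and 10.7% of all tested genes), and the median of 0.06 changed sign with the scaling. The survival factor MCL1 had 840.2 CPM in the high-arsenic library and 220.1 in the arsenic-copper library. The BH3-only gene HRK had 13.3 CPM with high arsenic and 1 count with arsenic and copper, a ratio of 35.8 with an interval of 6.03 to 1450. BAX was level, at 83.9 CPM with high arsenic and 83.5 with arsenic and copper.

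**Figure D4:**
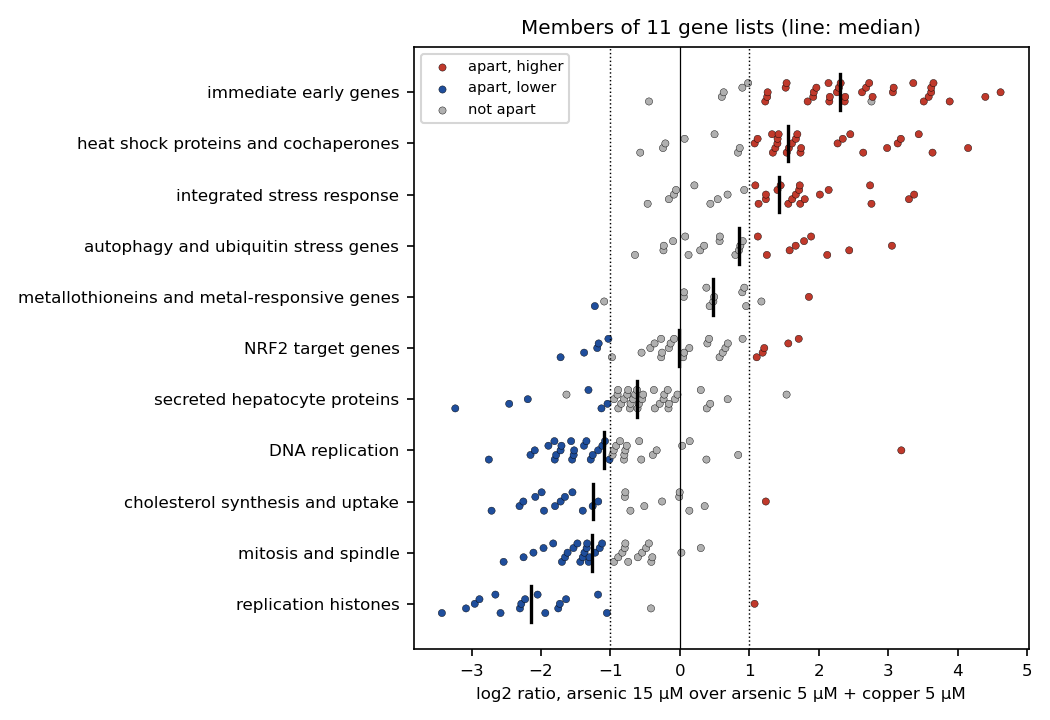
Log2 ratio of high arsenic over arsenic-copper for each tested member of 11 gene lists, 1 point per gene, with the median as a vertical line and dotted lines at 2-fold either way. Red points were apart and higher, blue points apart and lower, grey points not apart. The medians run from 2.30 for immediate early genes to -2.14 for replication histones.

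Cell cycle genes stood lower in the high-arsenic library. Replication histone genes, which are expressed in S phase and whose transcripts lack a poly(A) tail, were lower for 16 of 18 tested members, 1 was higher and the median log2 ratio was -2.14, against 10.7% of all tested genes lower. Of 38 tested DNA replication genes 21 were lower and 1 higher (median -1.10), and of 34 mitosis and spindle genes 20 were lower and none higher (median -1.26). Against the shared control, the medians were -3.09 for histones, -1.18 for replication and -1.09 for mitosis with high arsenic, and -1.05, -0.34 and 0.17 with arsenic and copper. In these bulk libraries fewer cycling cells and less RNA per cell cannot be told apart.

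The linker histone gene H1-5 had 43.8 CPM with high arsenic, 473 with arsenic and copper, 520.0 with arsenic 5 µM and 988 in the control (ratio 0.0926, 0.0762 to 0.112). H3C4 had 14.4 CPM with high arsenic and 112 with arsenic and copper, and H2BC21 48.8 and 309 CPM. The higher member was H2BC12, at 67.4 CPM with high arsenic and 31.9 with arsenic and copper, which was not apart when total counts set the scale. Histone genes of a class are close copies, so the assignment of reads among them is uncertain. PCNA, the sliding clamp of replication, had 25.5 CPM in the high-arsenic library, 173 in the arsenic-copper library, 89.9 with arsenic 5 µM and 242 in the control (ratio 0.148, 0.113 to 0.19). The helicase subunit MCM3 had 61 CPM with high arsenic and 272 with arsenic and copper, and thymidylate synthase TYMS 29.1 and 124 CPM. The single higher replication gene was cyclin E, CCNE1, at 62.4 CPM with high arsenic, 6.68 with arsenic and copper and 22.2 in the control (ratio 9.34, 5.74 to 16.1). Cyclin B, CCNB1, had 24.8 CPM in the high-arsenic library, 145 in the arsenic-copper library and 190.1 in the control (ratio 0.171, 0.13 to 0.221). The mitotic kinesin KIF20A had 19.7 CPM with high arsenic and 94.6 with arsenic and copper, and the kinase AURKB 30.1 and 131 CPM. The checkpoint genes BUB3 and TTK had slightly higher levels with high arsenic (257 and 37.7 CPM, against 208 and 37.1 CPM) and were not apart.

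Mitotic promoters often carry the cell cycle homology region, through which the DREAM complex can repress them. The promoters of CDK1 and PLK1, mitotic kinases that were lower with high arsenic, are printed with the letters TTTGAA in capitals (RefSeq, GRCh38.p14).
CDK1, chr10:60778378-60778477, plus strand: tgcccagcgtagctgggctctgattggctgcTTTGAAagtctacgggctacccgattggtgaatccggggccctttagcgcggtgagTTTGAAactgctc
PLK1, chr16:23678789-23678888, plus strand: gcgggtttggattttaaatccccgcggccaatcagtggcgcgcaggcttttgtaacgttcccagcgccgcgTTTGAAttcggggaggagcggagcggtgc
CDK1 had 16.5 CPM with high arsenic and 52.3 with arsenic and copper, and PLK1 71.8 and 160.0 CPM. The letters, on either strand, were found in 21 of 34 windows of the mitosis list (61.8%), 1 of 41 windows of the replication list (2.44%) and 15.2% of all windows. A CCAAT box was found in 19 of 20 histone windows (95%) and 34.6% of all windows.

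Secreted hepatocyte proteins had a median log2 ratio of -0.62, with 6 of 39 tested members lower (15.4%, against 10.7% of all tested genes), none higher and 34 with a ratio below 1. Together they took 1.25% of the counts in the high-arsenic library, 2.07% in the arsenic-copper library and 2.81% in the control. All 3 fibrinogen chains were lower: FGA had 17.2 CPM with high arsenic, 164 with arsenic and copper, 93.3 with arsenic 5 µM and 509.6 in the control (ratio 0.105, 0.0764 to 0.142). FGB had 82.5 CPM in the high-arsenic library and 377 in the arsenic-copper library, and FGG 28.3 and 157 CPM. Transthyretin (TTR), angiotensinogen (AGT) and antithrombin (SERPINC1) were the other lower members, with 38, 237 and 20.1 CPM with high arsenic, against 95, 519 and 41.6 CPM with arsenic and copper. SERPINC1 was not apart with DESeq2 size factors. Albumin (ALB) was not apart, at 3332 CPM with high arsenic, 5018 with arsenic and copper, 10841 with arsenic 5 µM and 6792 in the control. Complement C3 was nearly level, at 1401 CPM with high arsenic and 1583 with arsenic and copper.

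Of 20 tested hepatocyte transcription factors, 3 were higher and 4 lower (15% and 20%, not far from the 11.7% and 10.7% of all tested genes), with a median log2 ratio of -0.25. The bile acid receptor FXR (NR1H4) had 9.33 CPM with high arsenic, 58.6 with arsenic and copper, 74.1 with arsenic 5 µM and 119.7 in the control (ratio 0.159, 0.101 to 0.242). CEBPA and ONECUT1 were lower as well, at 4.3 and 2.15 CPM with high arsenic and 11.9 and 5.94 CPM with arsenic and copper, and ONECUT1 was not apart with DESeq2 size factors. Higher were CEBPB, at 288 CPM with high arsenic and 87.6 with arsenic and copper, ATF5, and the repressor NR0B2 (SHP), a textbook FXR target, at 25.1 and 8.17 CPM. HNF4A, the central factor of the hepatocyte programme, was not apart, at 151 and 231 CPM. Among 22 tested genes of bile acid and drug metabolism, 4 were higher and 4 lower (18.2% each, against 11.7% and 10.7% of all tested genes), with a median log2 ratio of -0.87, or -0.46 with members lacking counts in the high-arsenic library set to their bound or, under the floor in both, left out. The hormone FGF19, which represses bile acid synthesis, had 517 CPM with high arsenic and 108 with arsenic and copper (ratio 4.81, 4.23 to 5.47). The sulfotransferase SULT1A1 had 12.6 CPM in the high-arsenic library and 54.9 in the arsenic-copper library, and the dioxin-inducible CYP1A1 11.8 and 26 CPM.

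Cholesterol synthesis genes were lower for 13 of 23 tested members and higher for 1 (56.5% and 4.35%, against 10.7% and 11.7% of all tested genes). Their median log2 ratio was -1.26. Set against the shared control, the median log2 ratio was -0.91 with high arsenic and 0.40 with arsenic and copper. DHCR7, which catalyses the last reduction to cholesterol, had 109 CPM with high arsenic, 539.6 with arsenic and copper, 112 with arsenic 5 µM and 326 in the control (ratio 0.201, 0.177 to 0.228). For DHCR7 the high-arsenic and arsenic 5 µM levels lay close together, below both other libraries. Squalene epoxidase SQLE had 25.8 CPM with high arsenic and 124 with arsenic and copper. HMGCS1, a synthase early in the pathway, and the regulator INSIG1 were level, at 626 and 175 CPM with high arsenic and 628 and 176 CPM with arsenic and copper.

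Glycolysis and hypoxia genes went both ways, with 6 of 28 tested members higher, 7 lower (21.4% and 25%, against 11.7% and 10.7% of all tested genes) and a median log2 ratio of -0.27. Adrenomedullin (ADM) had 426 CPM with high arsenic and 59 with arsenic and copper, and hexokinase HK2 738 and 179 CPM. Lower were the phosphofructokinase genes PFKM, at 57.4 CPM with high arsenic and 157 with arsenic and copper, and PFKL, at 89 and 228 CPM, together with LDHA, TPI1, ALDOC, PFKFB4 and BNIP3, the last of which was not apart with DESeq2 size factors. GAPDH was not apart, at 4673 CPM in the high-arsenic library and 7176 in the arsenic-copper library. Urea cycle and amino acid enzymes had 2 of 23 tested members higher and 5 lower (8.7% and 21.7%, against 11.7% and 10.7% of all tested genes), with a median of -0.05 that changed sign with the scaling. CTH, which makes cysteine from cystathionine, had 257 CPM with high arsenic, 66.8 with arsenic and copper and 9.65 in the control. The glycine decarboxylase GLDC had 29.4 CPM with high arsenic and 102 with arsenic and copper. In iron handling, 1 of 18 tested members was higher and 3 lower (5.56% and 16.7%, near the 11.7% and 10.7% of all tested genes), with a median of -0.25. The hepcidin-inducing ligand BMP6 had 12.2 CPM with high arsenic and 1 count with arsenic and copper (ratio 32.9, 5.51 to 1336). ID1, a target of BMP signalling, was lower, at 44.8 CPM with high arsenic and 268 with arsenic and copper, and hepcidin (HAMP) was not apart, at 26.5 and 50.5 CPM.

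Inflammatory and secreted stress factors were higher for 7 of 19 tested members and lower for 5 (36.8% and 26.3%, against 11.7% and 10.7% of all tested genes). The median log2 ratio was 0.45, or 0.57 without IL1B, which was at or under the floor in both libraries. Growth factors and cytokines made up most of the higher members. IL11 had a ratio of 18.1 (14.3 to 23.1), the EGF-family ligand HBEGF had 43.8 CPM with high arsenic and 4.08 with arsenic and copper, and VEGFA 408 and 154 CPM. The lower members were the chemokines CCL20, CXCL1 and CXCL3, the adhesion molecule ICAM1 and the NF-kB inhibitor NFKBIA. CCL20 had 11.8 CPM in the high-arsenic library, 89.1 in the arsenic-copper library, 231 with arsenic 5 µM and 270.2 in the control (ratio 0.133, 0.0894 to 0.192). ICAM1 had 116 CPM with high arsenic and 337 with arsenic and copper, and NFKBIA 22.6 and 46 CPM. NFKBIA was not apart with DESeq2 size factors or when protein-coding genes alone were scaled. CXCL8 (interleukin-8) went the other way, at 112 CPM with high arsenic, 48.6 with arsenic and copper, 296 with arsenic 5 µM and 26.1 in the control.

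Small nucleolar RNAs, which guide modification of ribosomal RNA, were lower in the high-arsenic library for 26 of 67 tested C/D box members and 13 of 69 tested H/ACA members, with 1 and 2 higher. The lower shares were 38.8% and 18.8%, against 10.7% of all tested genes, and the higher shares 1.49% and 2.9%, against 11.7%. The median log2 ratios were -0.89 for C/D box and -0.66 for H/ACA members, and -0.90 and -0.68 with members lacking counts in a library set to their bound or left out in the same way. SNORD13 had 2446 CPM with high arsenic, 8367 with arsenic and copper, 62626 with arsenic 5 µM and 2703 in the control. SNORD7 had 24, 202, 4283 and 32.8 CPM in the same order (ratio 0.119, 0.0911 to 0.154). For both the high-arsenic level was the lowest of the 4 and the arsenic 5 µM level by far the highest, as was the snoRNA share of that library. SNORD83A went the other way in the pair, at 714 CPM with high arsenic and 112 with arsenic and copper. The genes that host snoRNAs were mostly level, with 21 of 23 not apart and a median log2 ratio of -0.16 (0.23 among protein-coding genes alone), and SNHG12 was lower, at 277 CPM with high arsenic and 636 with arsenic and copper. Among 82 tested cytoplasmic ribosomal protein genes 1 was higher and 3 lower (median -0.18), and among 32 ribosome biogenesis genes 1 was higher and 3 lower (3.12% and 9.38%, median -0.30). These shares lie under the 11.7% higher and 10.7% lower of all tested genes. The higher biogenesis gene was MYC, at 262 CPM with high arsenic and 119 with arsenic and copper. The lower ones were subunits of RNA polymerase I, with POLR1A at 56.3 CPM with high arsenic and 142 with arsenic and copper, POLR1B at 16.5 and 40.8 CPM, and POLR1C, which RNA polymerase III shares. Mitochondrial genome transcripts were lower for 5 of 15 (33.3%, against 10.7% of all tested genes), with none higher and a median of -0.82. The lower ones included the cytochrome oxidase subunit MT-CO3, at 270.5 CPM with high arsenic and 705 with arsenic and copper. Among 12 tested long noncoding RNAs, MALAT1 was higher, at 2831 CPM in the high-arsenic library and 1383 in the arsenic-copper library, and was not apart when total counts set the scale. The list's median was 0.42.

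Outside the lists, the genes furthest apart included ligands and signalling genes. WNT11 had 76.8 CPM with high arsenic, 2.97 with arsenic and copper, 0.426 with arsenic 5 µM and 2.9 in the control (ratio 25.9, 12.9 to 60.7). DIO3 had 80.4 CPM in the high-arsenic library, 3.71 in the arsenic-copper library, 1.28 with arsenic 5 µM and no count in the control. GEM and MXD1 stood at 117 and 273 CPM with high arsenic, against 6.31 and 17.4 CPM with arsenic and copper. In all of these the high-arsenic library was the highest of the 4. At the other end, PTPN6 (SHP-1), a tyrosine phosphatase, had 3.23 CPM with high arsenic, 35.6 with arsenic and copper, 5.96 with arsenic 5 µM and 26.1 in the control. The GM2 ganglioside activator GM2A had 3.59 CPM with high arsenic and 41.2 with arsenic and copper, and SLFN13 1.44 and 24.1 CPM. Of the lower genes of other types, the divergent transcript MOCS2-DT had no count in the high-arsenic library and 7.79 CPM in the arsenic-copper library, which makes it at least 7.24-fold lower against the floor of 3 counts. RPL13AP11 and RN7SL679P were lower too, but they are copies of other genes and their reads may be shared.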

How the data were processed

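Per the labels, total RNA of 9 HuH-7 cultures, 1 per condition, was isolated with the mirVana kit, depleted of ribosomal RNA with RiboMinus and sequenced on an Ion Torrent Proton from Ion Total RNA-Seq Kit v2 libraries. The files deposited by the authors hold whole-number read counts for Ensembl gene identifiers, not normalized. Per the submitters' processing notes, TopHat2 2.0.13, GRCh37 and HTSeq 0.6.1 were used. The sources used here give no annotation release, read filter or strand setting. HTSeq summary lines, 42.8% of the reads of the high-arsenic library and 43.5% of the arsenic-copper library, were left out of library sizes, and reads that align to several places are among them. Of 63677 identifiers, 52526 had a symbol and type in the name tables. GENCODE 29 and RefSeq (GRCh38) served for names, transcript length, GC content and promoters, and no coordinates were converted.

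Levels are CPM computed from the counts with TMM factors over the 9 libraries. With 1 library a side, exact conditional binomial 95% intervals cover counting error only, and a floor of 3 counts stands for no count. The edgeR contrast used additive terms for acetaminophen, exosomes and caffeine and a term for each arsenic library, with 2 residual degrees of freedom. It was also run on simulated counts with less spread than the data (common dispersion 0.169), so that run cannot back the calls. SE is the absolute log2 fold change divided by the square root of the F statistic, so it is not fitted by the model. DESeq2 was an alternative. Members and the 31 gene lists were chosen with earlier results of these data known. Genes were named by a rule: the 12 protein-coding genes furthest up and 12 furthest down, by whichever bound of the ratio's interval lay closer to 1, with at least 5 CPM in 1 library, the 4 highest and 4 lowest of other types, edgeR calls up to 10 a direction, and up to 2 members a list and direction, plus a fixed set; a part of these is printed. A few genes and 1 list are not reported here. Other members named as examples were picked after their values were seen. Of the histone list, 19 of 34 entries matched an identifier. Tools were R 4.3.3, edgeR 4.0.16, limma 3.58.1, DESeq2 1.42.0, and Python 3.11.15 with scipy 1.17.1, numpy 2.4.6, matplotlib 3.10.9 and pandas 2.3.3.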

Additional observations from a re-analysis of the deposited data

How the results depend on the processing

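The count of genes apart stayed within 1.5 times of 4077 (3575 to 4171) under the scaling, prior count, gene type, GC and length, and filter alternatives. A 4-fold limit left 1249 genes, 759 higher and 490 lower in the high-arsenic library, and a 1.5-fold limit gave 6123, 3063 of them lower. The edgeR contrast called 17 genes, between 15 and 21 with DESeq2 size factors, with DESeq2, without a count filter or among protein-coding genes alone. It called 0 with the 7 other libraries as 1 group, where 459 genes had an unadjusted p under 0.05, and 0 to 1033 as each of the 7 other libraries was left out, so the number of calls depends on which libraries supply the spread. Of 118 named ratios none changed sign in any alternative, and of 31 list medians 7 changed sign, all close to 0 in the main scaling: NRF2 targets, copper handling, arsenic handling, proteasome, BCL2 family, urea cycle and snoRNA hosts. No paired analysis was possible because each group has 1 library and the labels give no replicate numbers. Depth limits genes near 5 CPM, where counting intervals span about 3-fold, and no value here covers variation between cultures.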
